A study of Mus musculus with 8 samples.

Results

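The RNA of EO771 cells treated with the lipid 12-HETE was set directly against that of EO771 cells overexpressing the RNA-editing enzyme ADAR1 p150, to see which genes separate the lipid from the enzyme. The comparison took 4 of the 8 libraries of the series. The 2 12-HETE libraries (replicates 4 and 5) came from cells given 100 nM 12-HETE for 48 h, and the 2 ADAR1 p150 libraries (replicates 1 and 2) came from cells transduced with an ADAR1 p150 overexpression vector. The other 4 libraries, 2 of cells given vehicle (2% DMSO in saline) and 2 of cells transduced with empty vector, gave the side from which each gene moved. EO771 is a mouse breast cancer cell line, and the sources used here name neither the promoter of the overexpression vector nor whether a pool or a clone of transduced cells was used. The labels do not say whether replicates were separate cultures. The study describes its editing data from these cells, and an expression heatmap with vehicle and 12-HETE, as independent experiments. For that heatmap it gives more experiments than the 2 libraries per group here. It also says so of all its data in general, without naming these counts. The p-values below measure the spread between these libraries.

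12-HETE is a hydroxylated fatty acid that 12-lipoxygenase makes from arachidonic acid. ADAR1 deaminates adenosine to inosine in double-stranded RNA, and p150 is its interferon-inducible, largely cytoplasmic isoform, which keeps cellular double-stranded RNA from setting off the interferon response. Adding the lipid and adding the enzyme act at different levels, and a direct comparison of the RNA asks where the responses part.

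Totals were 1530304 and 1537037 counts in the 12-HETE libraries and 1353124 and 1407047 in the ADAR1 p150 libraries, after the authors' removal of duplicate reads. The control libraries held 1101767 to 1201351 counts. The single entry AY036118 took 44.4% to 50.3% of each library, so that 3 counts corresponded to 2.11 to 2.74 CPM (TMM-normalized read counts scaled to a common library size) and genes with low counts were measured imprecisely. Of 49997 genes, 6901 averaged 10 or more counts. Of these 6901 genes, 34.0% overlapped an exon on the opposite strand. Whether the counting used the strand is not given in the sources used here, so counts of such a gene may belong to its partner, which is named below where one was found. Of the epithelial markers, Krt8, Krt18 and other detected members summed to 201 to 379 counts, while Epcam had 1 to 4 and Cdh1 was at 0. The leukocyte markers summed to 11 to 28 counts, of which Cd68 had 10 to 26, with Cd3e at 0. The fibroblast marker Dcn had 8 to 57 counts and the basal marker Krt14 had 13 to 45. Pmel, a melanosome gene, had 305 to 517 counts, with Dct and Mlana at 0.

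Adar, the overexpressed gene, matched the labels. It had 7 and 6 counts with 12-HETE, 181 and 140 with ADAR1 p150, 5 and 5 with vehicle, and 2 and 8 with vector. Both ADAR1 p150 libraries stood far above all others, and the 12-HETE libraries sat among the controls. The log2 difference (12-HETE minus ADAR1 p150, as throughout) was -4.58 (SE 0.30, edgeR quasi-likelihood test, adjusted p = 3.3e-14). The table does not separate p150 from the shorter isoform p110, and Adar has an exon overlap with Chrnb2 on the other strand.

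The transcriptomes with the lipid and with the enzyme were far apart. With a threshold of 0.05 on the adjusted p together with a 2-fold difference, 384 genes were higher with 12-HETE (5.56% of the 6901 tested) and 708 were higher with ADAR1 p150 (10.3%), while the median over all genes was 0.04. Because each treatment had its own control, the same difference was also tested between the effects, that is 12-HETE minus vehicle against ADAR1 p150 minus vector. In that test 151 genes were higher for the 12-HETE effect (2.19%) and 424 for the ADAR1 p150 effect (6.14%), 8.33% of the genes in all. Both tests were passed in the same direction by 93 genes that were higher with 12-HETE (1.35%) and by 369 that were higher with ADAR1 p150 (5.35%), which is 6.69% of the genes together. The controls themselves differed in 3 genes (0.0435%, 0.0145% higher and 0.029% lower in vector) by edgeR, Mtpn, H4c2 and H3c14, with 795 at an unadjusted p under 0.05 and 0 called by DESeq2. With TMM factors from protein-coding genes alone, an alternative added after the data were seen, the direct split was 231 higher with 12-HETE and 977 higher with ADAR1 p150, and the median of all genes moved to -0.13. The number higher with 12-HETE fell to 242 without ADAR1 p150 replicate 2 and to 257 without 12-HETE replicate 4, and was 541 without ADAR1 p150 replicate 1, while the number higher with ADAR1 p150 was 556 to 689 over the 4 libraries left out in turn.

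**Figure D1:**
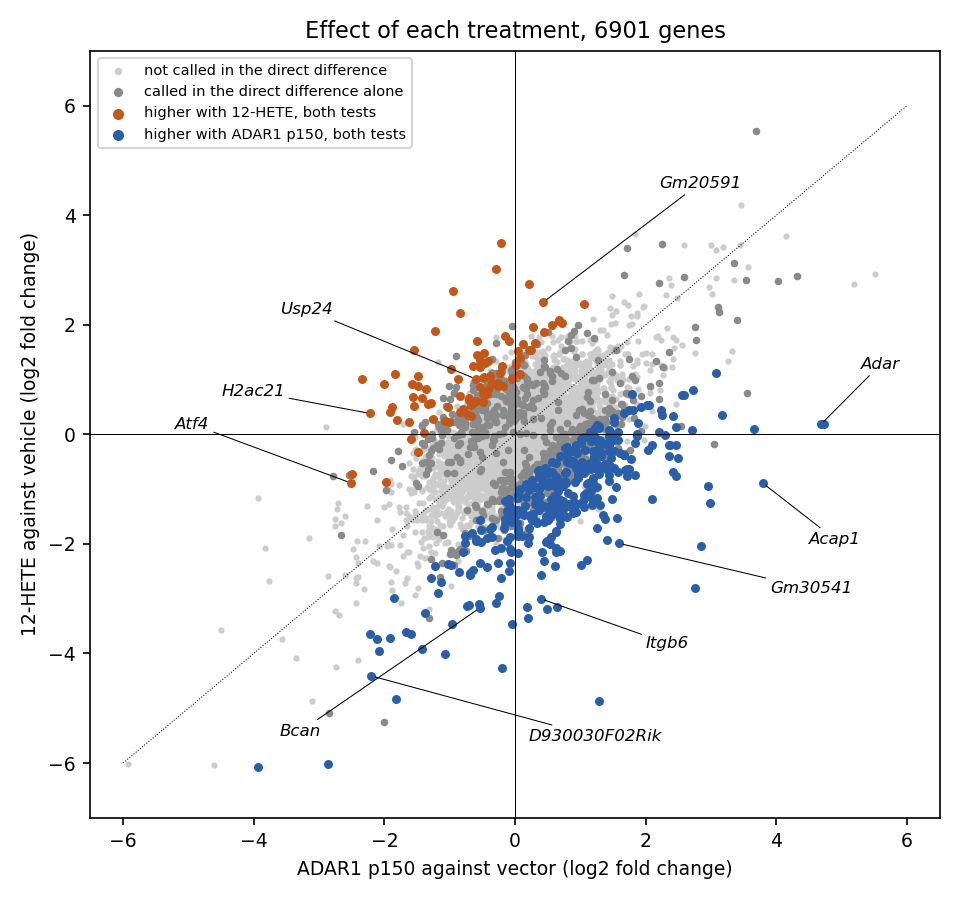
Effect of ADAR1 p150 against vector (horizontal axis, log2 fold change) and of 12-HETE against vehicle (vertical axis, log2 fold change), with a point per gene for 6901 genes and the dotted line at equal effects. The 93 genes higher with 12-HETE in both tests lie above the line and the 369 higher with ADAR1 p150 lie below it, with Adar and Acap1 far to the right.

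The genes parted in different ways. Against its own control, 422 of the 6901 genes had risen (6.12%) and 569 had fallen (8.25%) with 12-HETE, and 560 had risen (8.11%) and 324 had fallen (4.69%) with ADAR1 p150. Of the 708 genes higher with ADAR1 p150, 205 had risen with the enzyme alone (median 1.43 against vector), 192 had fallen with the lipid alone (median -1.57 against vehicle) and 19 had done both. A further 26 had fallen with both treatments, further with 12-HETE (median -3.62) than with ADAR1 p150 (median -1.63), 13 had risen with both, and 253 passed against neither control. Of the 384 genes higher with 12-HETE, 88 had risen with the lipid alone (median 1.35), 51 had fallen with the enzyme alone (median -1.43), 2 had done both, 7 had risen with both treatments and 1 had fallen with both. The largest share, 235 genes or 61.2%, passed against neither control. Vehicle was above vector in 72.9% of these 384 genes and in 38.7% of the 708, against 51.0% of all genes. The direct difference holds the difference between the controls as one of its terms, so that choosing genes by it favours such a split, and the 2 parts cannot be told apart in the direct test.

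Some of the leading genes higher with ADAR1 p150 had risen with the enzyme. Acap1 encodes a GTPase-activating protein for ARF6 in endosomal recycling (GRCm38.p6, chr11:69881566-69895568, minus strand). It stood at 15.0 and 19.1 CPM with 12-HETE and at 394.7 and 432.4 with ADAR1 p150, against 21.9 to 37.6 in the 4 controls. No other library came near the ADAR1 p150 pair, and the direct log2 difference was -4.60 (SE 0.18, adjusted p = 4e-20). Its neighbour 2810408A11Rik, 1784 bases away, followed it, with 11 and 6 counts with 12-HETE and 119 and 115 with ADAR1 p150 (-3.74, SE 0.31, adjusted p = 1.85e-11). Of the 13 tested genes within 100000 bases of Acap1, 2810408A11Rik was the single one that passed.

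Nol3, an inhibitor of apoptosis that carries a caspase recruitment domain, was at 27.1 and 34.5 CPM with 12-HETE and 188.5 and 187.5 with ADAR1 p150, while the controls had 34.0 to 38.3. It differed by -2.61 (SE 0.17, adjusted p = 4.5e-14), and an exon of 4931428F04Rik overlaps it on the other strand. Ankrd29, a gene of ankyrin repeats, had 16.4 and 23.7 CPM with 12-HETE and 134.4 and 111.1 with the enzyme (-2.62, SE 0.23, adjusted p = 6.7e-11). Insig2, which holds the sterol sensor SCAP in the endoplasmic reticulum and so restrains sterol synthesis, had 30.7 and 26.0 CPM with 12-HETE and 153.4 and 142.1 with ADAR1 p150 (-2.37, SE 0.18, adjusted p = 1.6e-12). With 12-HETE none of these 3 genes passed against vehicle (adjusted p = 0.581, 0.894 and 0.0513), and each separated through the enzyme.

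The non-coding gene Gm30635 behaved likewise, at 102.7 and 121.8 CPM with 12-HETE and 588.1 and 666.7 with ADAR1 p150 (-2.48, SE 0.13, adjusted p = 2.7e-16). It lies within Sorbs2 on chromosome 8, and its neighbours Gm51529 (-1.81) and Sorbs2os (-1.33) passed in the same direction, while Sorbs2 itself was at -0.74 (adjusted p = 0.0253), under the 2-fold limit. Keap1, which targets the oxidative stress factor NRF2 for degradation, had 24.3 and 39.1 CPM with 12-HETE and 118.9 and 137.6 with the enzyme (-2.02, SE 0.20, adjusted p = 1.2e-09). Lypd1 had 398.0 and 418.1 CPM with 12-HETE and 834.3 and 956.3 with ADAR1 p150 (-1.13, SE 0.10, adjusted p = 6.8e-11), and Gpr39 overlaps it on the other strand.

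Other genes on the enzyme's side had fallen with the lipid, in some cases beside a smaller rise with the enzyme. Itgb6, the beta-6 integrin subunit that helps activate latent TGF-beta, was at 3.57 and 11.5 CPM with 12-HETE and at 69.6 and 85.4 with ADAR1 p150, with 50.6 to 69.3 in the controls. The enzyme libraries were level with or slightly above the controls, and the direct difference was -3.37 (SE 0.30, adjusted p = 9.7e-11). Bcan, which encodes the proteoglycan brevican, had 19.3 and 24.5 CPM with 12-HETE, 147.0 and 142.9 with ADAR1 p150 and 192.5 to 211.8 in the controls (-2.73, SE 0.18, adjusted p = 3.3e-14). Ceacam16, a secreted protein known from the inner ear, had 19.3 and 26.0 CPM with 12-HETE, 193.5 and 198.8 with ADAR1 p150 and 93.3 to 144.2 in the controls (-3.12, SE 0.18, adjusted p = 3.4e-15). Of its 5 tested neighbours within 100000 bases, Gm16184 (-1.64), Pvr (-1.22) and Bcl3 (-1.08) passed in the same direction, though Bcl3 lost its call without any single library of the 4. Ceacam16 was also higher with the enzyme than with vector by 0.62 (edgeR adjusted p = 0.00098), under the 2-fold limit. It overlaps Gm19345 on the other strand.

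Plxnb1, a semaphorin receptor, had 11.4 and 4.59 CPM with the lipid and 40.8 and 34.0 with the enzyme (-2.19, SE 0.32, adjusted p = 2.4e-06), with an overlap with Gm7628. Among abundant transcripts, Cog5, a subunit of the Golgi tethering complex, fell to 94.2 and 105.7 CPM with 12-HETE from 505.3 and 535.1 with vehicle, and was at 299.0 and 320.5 with ADAR1 p150 against 590.6 and 630.0 with vector (-1.63, SE 0.12, adjusted p = 7.5e-13). Hbp1 overlaps Cog5 on the other strand. The non-coding gene Gm51671 showed the same side, at 193.3 and 209.1 against 609.9 and 675.8 CPM (-1.68, SE 0.10, adjusted p = 1.5e-14). Its controls had 419.8 to 454.6 CPM, and the enzyme was above vector by 0.59 (edgeR adjusted p = 2e-05). The non-coding gene Gm51702 had 169.8 and 150.9 against 406.6 and 444.5 CPM (-1.41, SE 0.12, adjusted p = 1.6e-11).

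In 19 genes the treatments moved in opposite directions, down with the lipid and up with the enzyme. Gm30541, a non-coding gene that overlaps Mxi1 on chromosome 19, had 11.4 and 19.1 CPM with 12-HETE against 59.9 and 61.4 in its vehicle, but 241.3 and 269.9 with ADAR1 p150 against 75.8 and 93.5 in its vector. The direct difference was -4.07 (SE 0.19, adjusted p = 1e-17), and Mxi1, a MAX-binding antagonist of MYC, passed in the same direction (-1.73, SE 0.48, adjusted p = 0.00544) but not without 12-HETE replicate 5 (-1.56, adjusted p = 0.0566). Gm34845 had 18.5 and 24.5 CPM with 12-HETE and 85.8 and 99.8 with ADAR1 p150, with 34.1 to 49.3 in the controls (-2.11, SE 0.22, adjusted p = 2.8e-09). Gm41530 had 32.1 and 26.0 against 99.2 and 105.8 CPM, with 39.3 to 62.2 in the controls (-1.81, SE 0.20, adjusted p = 6.9e-09). Slc22a5, the carnitine transporter, had 0.713 and 0 CPM with 12-HETE, which is 1 and 0 counts, and 16.9 and 11.3 CPM with ADAR1 p150, against 12.8 and 14.1 with vehicle and 4.56 and 6.99 with vector (adjusted p = 4.9e-06). It was the transporter with the lowest direct difference in the list of solute carriers, but no fold is given at so few counts.

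The non-coding gene D930030F02Rik fell with both treatments and still separated them. Its level was 13.6 and 16.1 CPM with 12-HETE against 333.0 and 298.7 in vehicle, and 78.1 and 70.3 with ADAR1 p150 against 367.9 and 314.6 in vector. The 4 groups did not overlap except for the controls, and the direct difference was -2.32 (SE 0.22, adjusted p = 3.1e-10).

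**Figure D2:**
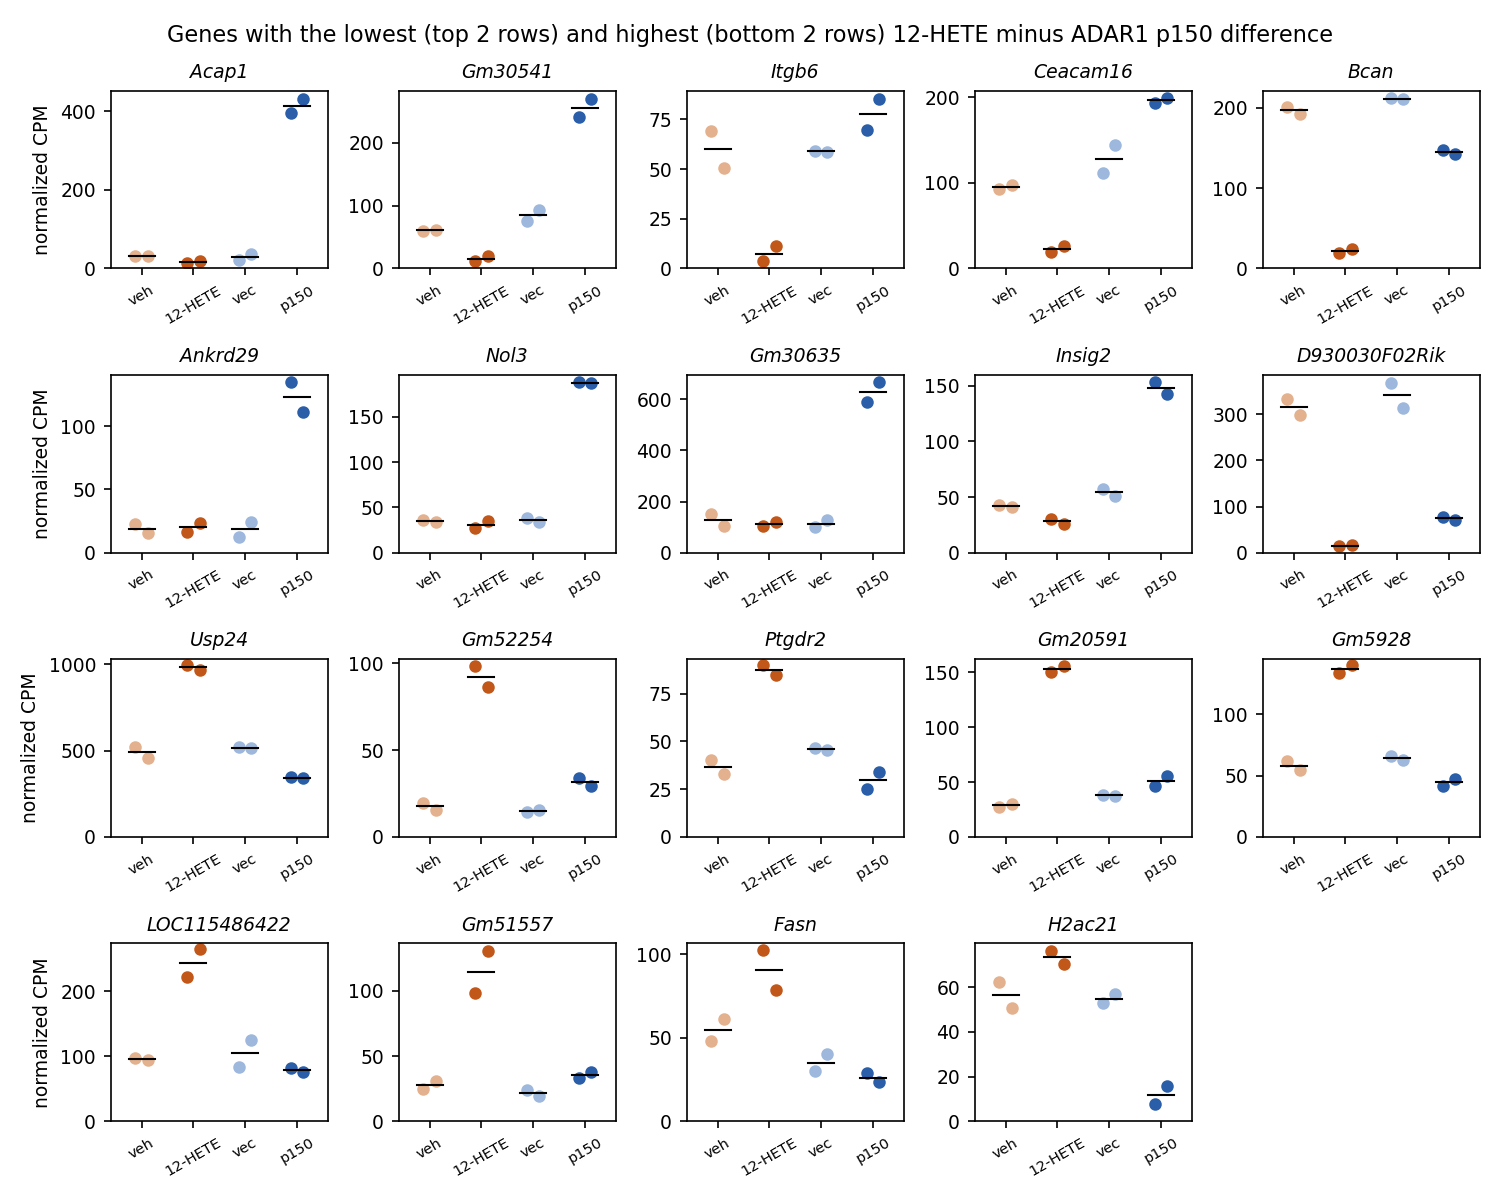
Normalized CPM (vertical axis, linear, from 0) in each of the 8 libraries for 19 genes, with a point per library and a bar at the mean of each group of 2 (veh for vehicle, vec for vector and p150 for ADAR1 p150). The top 10 panels hold the genes lowest and the bottom 9 genes among the highest in 12-HETE minus ADAR1 p150; Acap1 separates through the ADAR1 p150 pair, Itgb6 through the 12-HETE pair and Gm30541 through both.

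Genes higher with 12-HETE differed by less, and the histone gene H2ac21 was the highest of those averaging 50 or more counts. Replication-dependent histones package newly made DNA, are transcribed in S phase from clustered genes, and end their mRNAs in a stem-loop without a poly(A) tail. Members of a histone class are nearly identical in their coding sequence, so counts of a single member are uncertain where reads could be split between copies. Of 63 listed histone genes, 27 were tested, and 16 of them (59.3%, against 5.56% of all genes) were higher with 12-HETE. With ADAR1 p150 0 were higher, and the median was 1.46 against 0.04 for all genes. In the test of the effects 7 passed towards 12-HETE, where 2.19% of all genes did, and again 0 in the other direction. The median there was 1.68 against -0.07. Summed over the 27 genes, the level was 762.5 and 791.1 CPM with 12-HETE against 715.7 and 711.0 in vehicle, and 302.5 and 221.5 with ADAR1 p150 against 809.7 and 477.1 in vector. Both ADAR1 p150 libraries were below all 6 others, and the share of all counts was 0.0679% and 0.0486% there and 0.160% and 0.163% with 12-HETE. Against vector, 10 of the 27 had fallen with the enzyme, and against vehicle 4 had risen with the lipid.

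The promoters of 3 of the 7 histone genes that passed both tests are shown, marked for short elements common in this class. Each is 300 bases long, from 250 before to 50 after the start, 5′ to 3′, from RefSeq GRCm38.p6, with CCAAT and TATAAA on either strand in capitals. H2ac21 lies at chr3:96219635-96219934 (plus strand), H4c3 at chr13:23698409-23698708 (minus strand) and H3c15 at chr3:96239078-96239377 (minus strand).
H2ac21: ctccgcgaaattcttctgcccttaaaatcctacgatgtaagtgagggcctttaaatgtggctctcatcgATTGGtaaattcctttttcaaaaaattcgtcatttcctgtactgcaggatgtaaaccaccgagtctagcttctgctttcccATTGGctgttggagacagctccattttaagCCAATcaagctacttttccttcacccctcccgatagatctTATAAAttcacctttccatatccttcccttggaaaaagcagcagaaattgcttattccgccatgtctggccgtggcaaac
H4c3: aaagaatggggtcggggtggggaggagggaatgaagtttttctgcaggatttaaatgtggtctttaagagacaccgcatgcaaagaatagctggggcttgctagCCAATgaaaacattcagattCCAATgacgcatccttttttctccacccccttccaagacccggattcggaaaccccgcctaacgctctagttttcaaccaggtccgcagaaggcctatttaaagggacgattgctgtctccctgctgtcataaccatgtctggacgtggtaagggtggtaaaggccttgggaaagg
H3c15: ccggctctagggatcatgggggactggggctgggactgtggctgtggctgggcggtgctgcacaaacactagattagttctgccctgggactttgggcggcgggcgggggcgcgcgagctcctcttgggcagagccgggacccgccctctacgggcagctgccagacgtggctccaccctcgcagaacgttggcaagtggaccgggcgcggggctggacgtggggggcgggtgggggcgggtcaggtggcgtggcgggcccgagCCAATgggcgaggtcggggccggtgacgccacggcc
H2ac21 held CCAAT 3 times and TATAAA once, H4c3 held CCAAT 2 times and H3c15 held it 1 time, both without TATAAA. Over the 26 tested histone genes with a promoter in the table, 80.8% held CCAAT and 61.5% TATAAA, against 37.9% and 14.2% of 27025 promoters of the same length. Among the 15 of them that were higher with 12-HETE the shares were 86.7% and 60.0%. Such a match describes the letters and is not evidence of binding.

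H2ac21, an H2A gene, had 76.3 and 70.5 CPM with 12-HETE, 50.6 to 62.5 in the controls and 7.74 and 15.9 with ADAR1 p150. The enzyme pair stood below all other libraries, and the direct difference was 2.64 (SE 0.26, adjusted p = 8.7e-10). Around it, H3c15, H3c13, H3c14, H2ac18 and H4c14 of the same cluster on chromosome 3 passed in the same direction (H3c14 being one of the 3 genes called between the controls), while H2ac20, 59 bases away, was at 0.74 (adjusted p = 0.197) and the non-histone neighbours Otud7b and Mtmr11 were at -0.36 and -0.56. H4c3, an H4 gene, had 20.0 and 12.3 CPM with 12-HETE and 2.11 and 2.27 with ADAR1 p150 (2.84, SE 0.54, adjusted p = 1e-04), with 4.56 to 12.4 in the controls. H3c15 had 47.1 and 21.4 against 2.81 and 3.02 CPM (3.52, SE 0.54, adjusted p = 3.9e-06), with controls that ranged from 5.24 to 26.5. H3c4 showed how uneven some members were, at 11.4 and 49.0 CPM with 12-HETE against 77.9 and 7.47 in vehicle, and at 1.41 and 3.02 with ADAR1 p150 against 0.913 and 10.5 in vector (3.71, SE 0.85, adjusted p = 0.00087, lost without 12-HETE replicate 5 at adjusted p = 0.118). The number of histone genes passing was 11 to 17 of 27 when each library was left out, lowest without 12-HETE replicate 5, and in DESeq2 it was 10 in the direct test and 1 in the test of the effects. Without vector replicate 1, 3 passed in the test of the effects. With at least 10 counts demanded in every library, 3 histone genes could be tested, of which 3 passed in the direct test (median 1.04) and 1 in the effects (median 0.80), since most members had few counts with ADAR1 p150. The labels and the methods name different library kits, so whether RNA was selected by its poly(A) tail is not known here, and the part of that step in the histone counts was not tested.

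**Figure D3:**
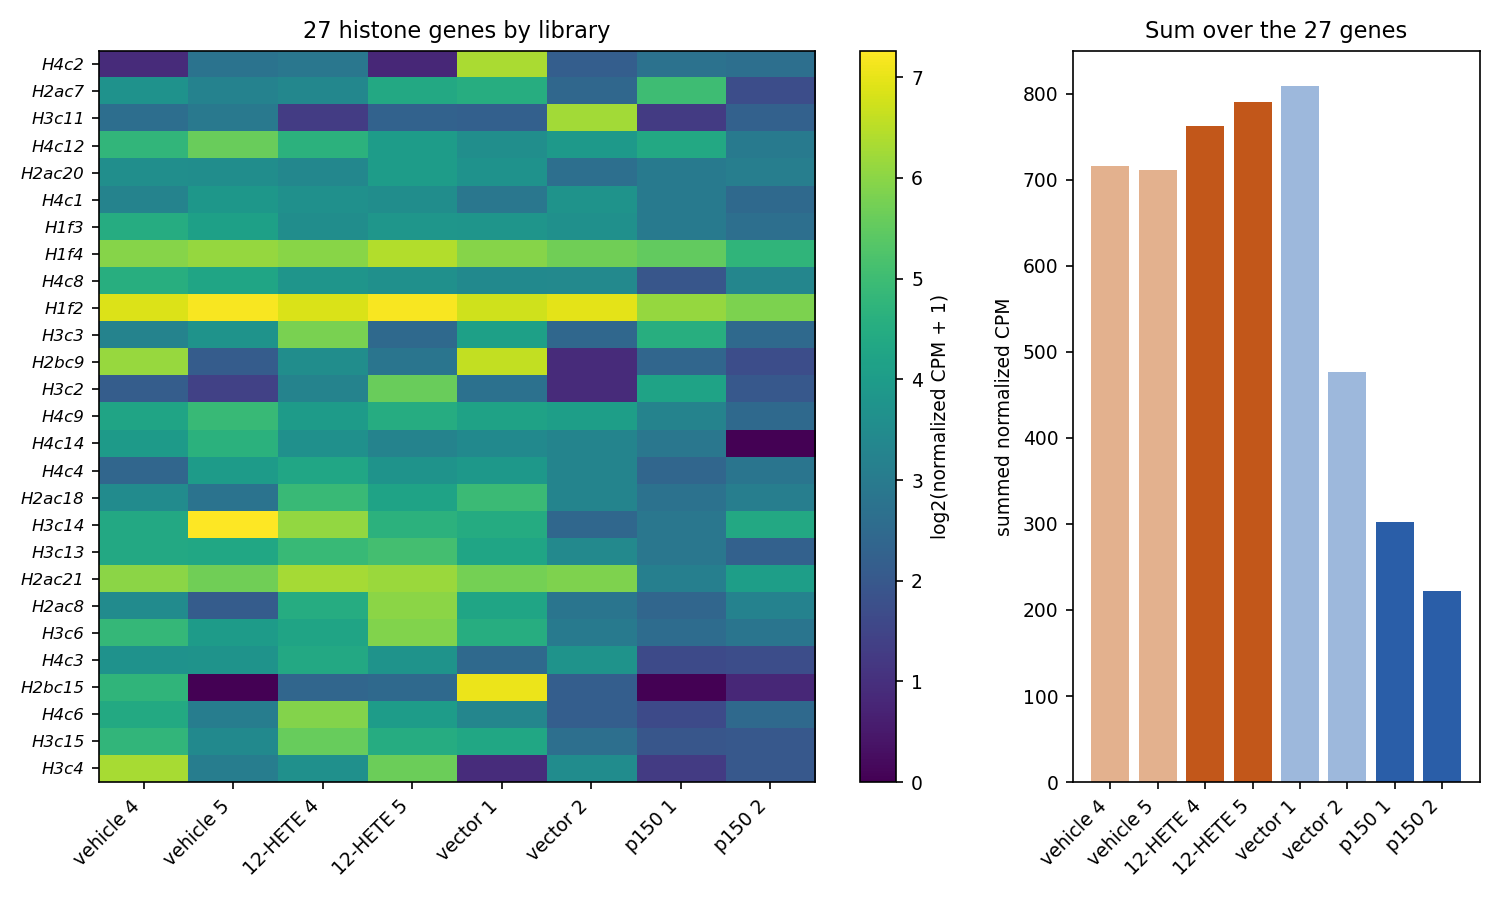
Left, log2(normalized CPM + 1) of 27 replication-dependent histone genes (rows, ordered by 12-HETE minus ADAR1 p150) in the 8 libraries (columns). Right, their summed normalized CPM per library, which was 302.5 and 221.5 with ADAR1 p150 and 762.5 and 791.1 with 12-HETE.

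The histone variant gene H2ax was also higher with 12-HETE, at 23 and 22 against 8 and 7 counts (1.59, SE 0.42, adjusted p = 0.00312). E2f8, a repressor of the E2F family that acts in the cell cycle, shares its locus with LOC115486422. LOC115486422 had 221.8 and 264.2 CPM with 12-HETE and 81.6 and 75.6 with ADAR1 p150 (1.62, SE 0.15, adjusted p = 1.8e-10), and E2f8 had 28 and 19 against 8 and 8 counts (1.56, SE 0.40, adjusted p = 0.00301). Reads of these overlapping genes could not be told apart.

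Other genes on the side of the lipid rose with it. Usp24, a deubiquitinase, had 996.5 and 967.2 CPM with 12-HETE, 459.6 to 518.8 in the controls and 344.7 and 338.7 with ADAR1 p150 (1.52, SE 0.10, adjusted p = 2.2e-14). The 4 controls lay between the treatments, and Usp24 rose by 1.01 with the lipid and fell by 0.60 with the enzyme on the log2 scale. Ptgdr2, the prostaglandin D2 receptor CRTH2, had 89.9 and 85.0 against 25.3 and 34.0 CPM, with 33.2 to 46.6 in the controls (1.56, SE 0.20, adjusted p = 2.3e-07), but Ccdc86 overlaps it on the other strand. The pseudogene Gm20591 had 150.5 and 155.5 CPM with 12-HETE against 46.4 and 55.9 with ADAR1 p150 (1.58, SE 0.16, adjusted p = 1.7e-09). It overlaps Acat2, a cytosolic acetoacetyl-CoA thiolase at the entry to sterol synthesis, which had 13.6 and 29.1 against 4.92 and 5.29 CPM (2.03, SE 0.44, adjusted p = 0.00046, and 0.0613 without 12-HETE replicate 5).

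The pseudogenes Gm5928 (1.62, SE 0.16, adjusted p = 1.6e-09) and Gm52254 (1.54, SE 0.20, adjusted p = 2e-07) and the non-coding genes Gm51557 (1.69, SE 0.20, adjusted p = 2.4e-08), Gm28857 (1.11, SE 0.11, adjusted p = 1.2e-09), A430105J06Rik (1.17, SE 0.12, adjusted p = 9.8e-10) and A230020J21Rik, which Flvcr1 overlaps (1.10, SE 0.12, adjusted p = 8.2e-09), completed the leading genes on this side. Among them Gm28857, which overlaps AA986860, had the clearest rise with the lipid, from 137.0 and 117.0 CPM with vehicle to 428.7 and 490.9, and it was at 218.8 and 205.6 with ADAR1 p150. Lratd2 separated through the enzyme instead, at 107.7 and 144.7 CPM with 12-HETE, 130.1 to 150.6 in the controls and 42.9 and 50.6 with ADAR1 p150 (1.43, SE 0.17, adjusted p = 5e-08).

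In the integrated stress response the translation factor eIF2 is phosphorylated and ATF4 induces amino acid and chaperone genes. Its genes had fallen more often with the enzyme than with the lipid. Of 24 tested members 9 (37.5%, against 5.56% of all genes) were higher with 12-HETE and 1 (4.17%, against 10.3%) with ADAR1 p150. The median was 0.86, and in the effects 4 and 1 passed, with a median of 0.45. Against vector 8 had fallen and 2 had risen with ADAR1 p150. Against vehicle 4 had fallen and 1 had risen with 12-HETE. Vehicle was above vector in 19 of the 24. Atf4 had 25.7 and 17.6 CPM with 12-HETE against 34.2 and 46.5 in vehicle, and 6.33 and 3.78 with ADAR1 p150 against 26.5 and 32.3 in vector (2.07, SE 0.40, adjusted p = 0.00012). Atf5, its paralogue, had 291.0 and 312.4 CPM with 12-HETE, 237.3 to 335.9 in the controls and 121.7 and 134.6 with ADAR1 p150 (1.24, SE 0.12, adjusted p = 1.2e-09), though Nup62 and Il4i1 overlap it. Ddit3, the factor CHOP, named after its values were seen, had 154.1 and 147.0 against 63.3 and 86.9 CPM, with 180.0 to 218.2 in the controls (1.01, SE 0.15, adjusted p = 2.1e-06). In all 3 genes the ADAR1 p150 pair was the lowest. The serine synthesis enzymes Psat1 (1.36, adjusted p = 0.0187) and Shmt2 (1.35, adjusted p = 0.0218) passed too, but Psat1 lost the call without 12-HETE replicate 4 or ADAR1 p150 replicate 2, and Shmt2, which Ndufa4l2 overlaps, without any single library of the 4. The exception was Vldlr, a lipoprotein receptor, at 10.7 and 14.6 against 45.7 and 36.3 CPM (-1.70, SE 0.29, adjusted p = 2.6e-05).

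Of 14 tested genes of sterol and fatty acid synthesis 5 (35.7%, against 5.56% of all genes) were higher with 12-HETE. With ADAR1 p150 1 (7.14%, against 10.3%), Insig2, was higher, and the median was 0.96. Fasn, fatty acid synthase, had 102.7 and 78.9 CPM with 12-HETE and 28.8 and 23.4 with ADAR1 p150 (1.79, SE 0.21, adjusted p = 5.2e-08). The controls were already apart for Fasn, at 47.9 and 61.4 CPM with vehicle and 30.1 and 40.2 with vector, and with that taken off the median of the list was 0.21 and Fasn, Acat2 and Insig2 remained past the threshold.

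Lists of growth and protein homeostasis were higher with 12-HETE in the direct test. In the test of the effects their medians were smaller and fewer members passed. The 25 tested genes of G1/S and DNA replication had 9 higher with 12-HETE (36.0%, against 5.56% of all genes) and 0 lower, with a median of 0.82. In the effects 0 passed by edgeR and 0 by DESeq2, against 2.19% of all genes higher for 12-HETE by edgeR. At an unadjusted p under 0.05, 9 were higher for 12-HETE, and the list median was 0.41. Mcm5, a subunit of the replicative helicase, had 32.1 and 29.9 CPM with 12-HETE and 10.6 and 6.05 with ADAR1 p150 (1.88, SE 0.35, adjusted p = 7.1e-05), with 19.7 and 26.5 with vehicle and 16.4 and 9.61 with vector. Mcm3 (1.68, adjusted p = 0.00012), Cdc6, which loads that helicase (1.71, adjusted p = 0.00084), and Rpa1, which binds single-stranded DNA (1.68, adjusted p = 0.00048), passed likewise. For mitosis and spindle genes the counts were 10 (35.7%) and 0 of 28, with a median of 0.75, and 1 in the effects, with a median of 0.21. Plk1, a mitotic kinase, had 32.8 and 24.5 against 9.15 and 11.3 CPM (1.48, SE 0.33, adjusted p = 0.00066). Cdk1 had 12.8 and 12.3 against 5.63 and 3.02 CPM (1.50, adjusted p = 0.0115), but vehicle was at 12.0 and 13.3 and vector at 3.65 and 3.50, so that the effects differed by -0.29 (adjusted p = 0.849), and the direct call was lost without 12-HETE replicate 4 or ADAR1 p150 replicate 2.

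Proteasome subunits (5 and 0 of 16, median 0.78), splicing factors (8 and 0 of 54, median 0.64), RNA helicases (8 and 0 of 27, median 0.77) and chaperones (7 and 2 of 23, median 0.82) leaned the same way, with medians of 0.27, 0.24, 0.35 and 0.31 in the effects, where 0, 2, 3 and 2 were higher with 12-HETE and 1 chaperone was lower. Higher with 12-HETE in the direct test were 31.2%, 14.8%, 29.6% and 30.4% of these lists, against 5.56% of all genes. In the effects 2.19% of all genes were higher for 12-HETE and 6.14% lower, with a median of -0.07. Vehicle was above vector in 13 of the 16, 45 of the 54, 21 of the 27 and 20 of the 23 members. Hsph1, a co-chaperone of HSP70, was at 74.2 and 60.5 CPM with 12-HETE and 27.4 and 24.2 with ADAR1 p150 (1.38, SE 0.22, adjusted p = 5.8e-06), with vehicle at 38.5 and 40.7 and vector at 27.4 and 23.6. Hspb1, a small heat shock protein, went the other way, at 7.85 and 2.30 against 21.1 and 23.4 CPM (-2.09, SE 0.43, adjusted p = 0.00024). Hnrnpf, with 4933440N22Rik on its other strand (1.28, adjusted p = 9.1e-05), and Ddx21 (1.71, adjusted p = 7.8e-05) were among the RNA-binding members that passed, and Eif4a2, a translation initiation helicase, passed both tests, at 67.8 and 74.3 against 31.0 and 28.7 CPM (1.25, SE 0.21, adjusted p = 1.8e-05), with an overlap with Rfc4. The cytosolic ribosomal proteins had 0 of 61 past the threshold in either test by edgeR and by DESeq2 (20 higher with 12-HETE and 1 lower at an unadjusted p under 0.05 in the direct test), with a median of 0.42 in the direct difference and -0.15 in the effects, and vehicle above vector in 57 of 61. Their share of all counts was 0.642% and 0.533% with 12-HETE and 0.555% and 0.380% with ADAR1 p150, so the groups overlapped.

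**Figure D4:**
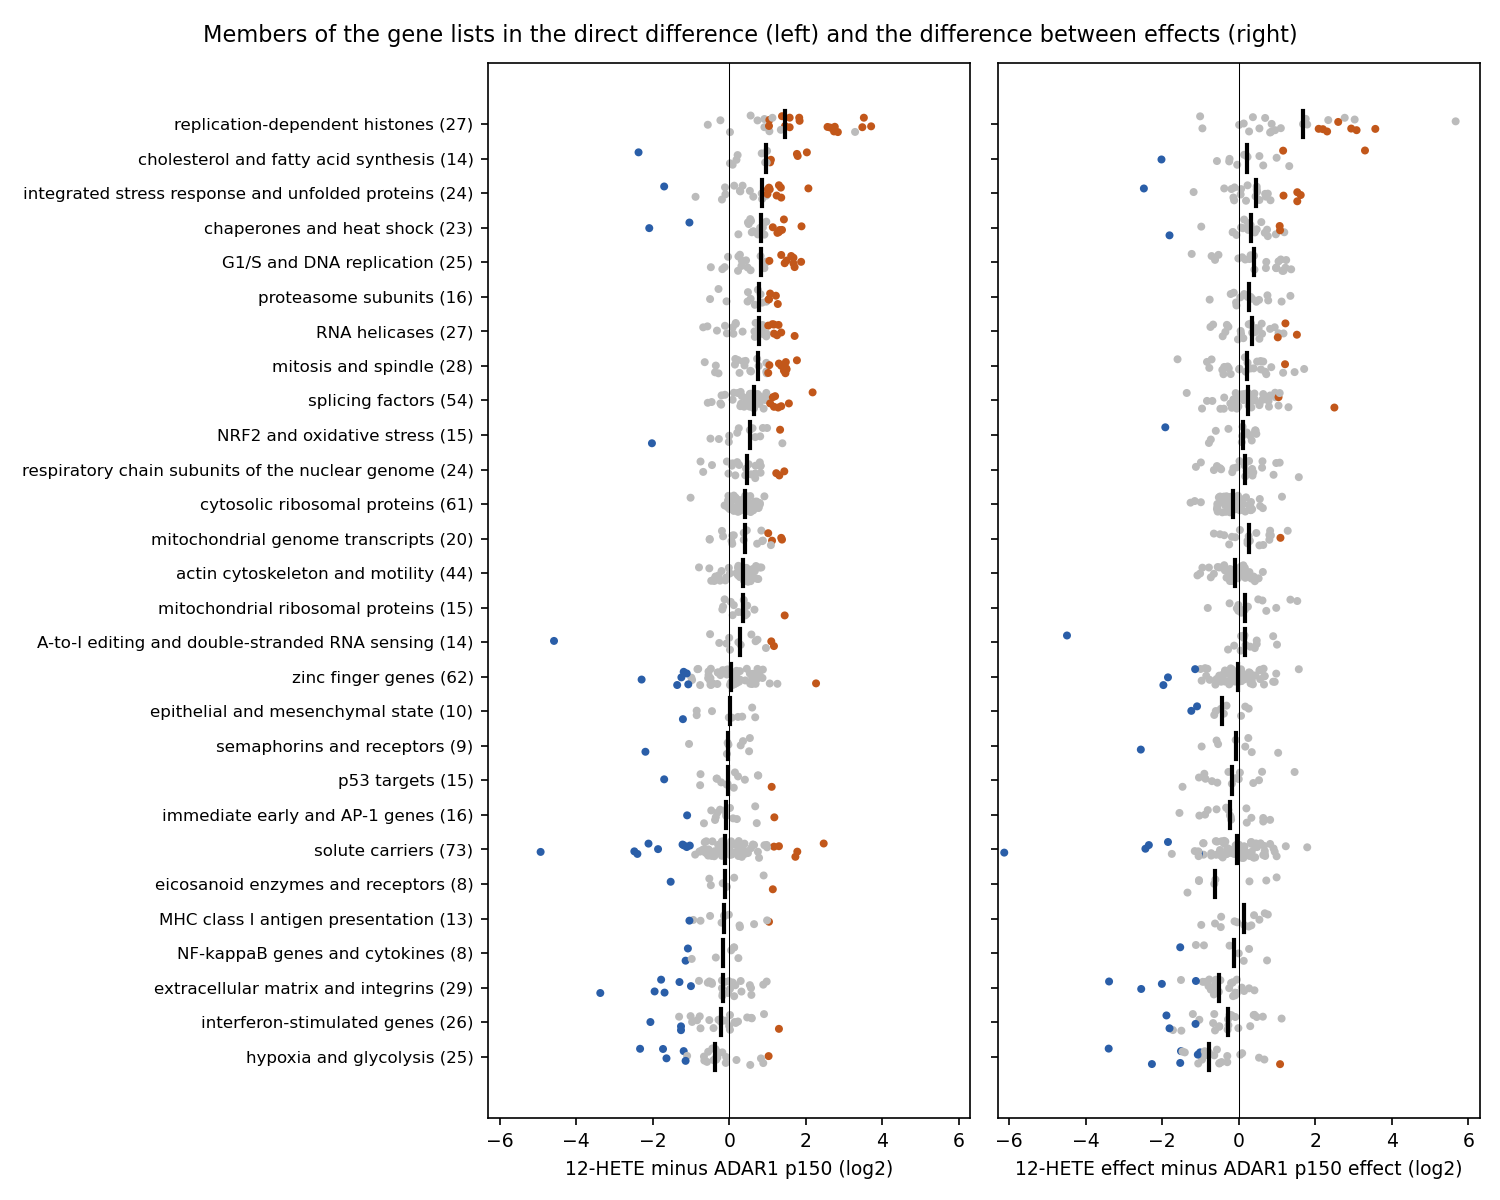
Log2 difference of each tested member (points) of 28 gene lists in 12-HETE minus ADAR1 p150 (left) and in the 12-HETE effect minus the ADAR1 p150 effect (right), with black bars at list medians, orange points past the threshold towards 12-HETE and blue points towards ADAR1 p150, and the number tested in brackets. Histone genes keep a high median on both sides, at 1.46 and 1.68, while the cytosolic ribosomal proteins move from 0.42 to -0.15.

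Of 25 tested hypoxia and glycolysis genes 5 (20.0%, against 10.3% of all genes) were higher with ADAR1 p150 and 1, Eno1, with 12-HETE, with a median of -0.36. In the effects 6 and 1 passed, with a median of -0.78, against 6.14% and 2.19% of all genes. Ndrg1, a hypoxia-induced suppressor of metastasis that Gm2895 overlaps, had 4.28 and 3.06 CPM with 12-HETE against 15.4 and 24.1 in vehicle, and 22.5 and 15.1 with ADAR1 p150 against 7.30 and 11.4 in vector (-2.33, SE 0.46, adjusted p = 0.00016). Epas1, the factor HIF-2 alpha, had 4.99 and 6.89 against 18.3 and 18.9 CPM (-1.64, SE 0.39, adjusted p = 0.00147), and Egln1, the prolyl hydroxylase that marks HIF for degradation, had 17.1 and 27.6 against 53.5 and 47.6 CPM (-1.19, SE 0.26, adjusted p = 0.00047). Epas1 separated through the lipid and Egln1 through the enzyme, but Epas1 did not pass in the effects (edgeR adjusted p = 0.0627). Vegfa had 9.99 and 13.8 against 26.7 and 25.7 CPM (-1.14, adjusted p = 0.0075, and 0.103 without 12-HETE replicate 4). Of 29 matrix and integrin genes 6 (20.7%) were higher with ADAR1 p150 and 0 with 12-HETE, with a median of -0.17 (0.03 without ADAR1 p150 replicate 1), and 4 and 0 in the effects, with a median of -0.52. Besides Itgb6 the 6 in the direct test included Itga1, the collagen-binding alpha-1 integrin, at 4.28 and 6.89 against 18.3 and 20.4 CPM (-1.78, SE 0.42, adjusted p = 0.00112). Itga1 passed against neither control and not in the effects (edgeR adjusted p = 0.105). Timp3, a metalloproteinase inhibitor that Syn3 overlaps, was at 8.56 and 6.13 against 25.3 and 22.7 CPM (-1.69, SE 0.37, adjusted p = 0.00047).

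Interferon-stimulated genes had fallen with both treatments, in 16 of 26 with 12-HETE (median -1.60) and in 13 of 26 with ADAR1 p150 (median -1.14). Of all genes 8.25% had fallen with 12-HETE and 4.69% with ADAR1 p150. Directly between the treatments 3 (11.5%) were higher with ADAR1 p150 and 1 (3.85%) with 12-HETE, with a median of -0.22. These shares were near the 10.3% and 5.56% of all genes. In the effects 3 passed towards ADAR1 p150 and 0 towards 12-HETE, against 6.14% and 2.19% of all genes. The 3 were Cd274, Ifi27l2a and Irf7, and the list median there was -0.29. Summed over the 26 genes the level was 410.1 and 380.6 CPM with 12-HETE and 510.0 and 554.1 with ADAR1 p150, against 971.7 to 1081.0 in the controls. Cd274, which encodes the T-cell checkpoint ligand PD-L1, had 2.85 and 6.89 CPM with 12-HETE, 25.3 and 15.1 with ADAR1 p150 and 47.1 to 56.8 in the controls (-2.06, SE 0.41, adjusted p = 0.00017). Ifi27l2a had 30 and 30 counts with 12-HETE and 66 and 80 with ADAR1 p150, with 203 to 231 in the controls (-1.26, SE 0.22, adjusted p = 2.8e-05). Both genes were lower with either treatment than in the controls and lowest with the lipid. Irf7, which Phrf1 overlaps, passed as well (-1.26, adjusted p = 0.0324) but not without 12-HETE replicate 5 or ADAR1 p150 replicate 2, and Slfn9 was higher with 12-HETE (1.30, adjusted p = 0.0145), not without the same libraries. Of 13 genes of MHC class I presentation 1 (7.69%) passed in each direction, again near the shares of all genes, with a median of -0.13. Among 14 genes of editing and double-stranded RNA sensing, Adar aside, the RNA helicase Dhx9 was higher with 12-HETE (1.17, adjusted p = 0.00354), which was lost without 12-HETE replicate 4 or ADAR1 p150 replicate 2 and in DESeq2.

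Of the 8 tested members of a list of eicosanoid enzymes and receptors, which did not include the receptor Ptgdr2 given above, Ptges, a prostaglandin E synthase, was higher with ADAR1 p150, at 7.85 and 5.36 against 17.6 and 21.2 CPM (-1.53, SE 0.39, adjusted p = 0.00269, and 0.0612 by DESeq2), and Ptges3, which also serves HSP90 as the co-chaperone p23, was higher with 12-HETE, at 46.4 and 46.7 against 25.3 and 16.6 CPM (1.14, SE 0.25, adjusted p = 0.0006). Neither passed in the effects (adjusted p = 0.118 and 0.228). Each was 12.5% of the list, against 10.3% of all genes towards ADAR1 p150 and 5.56% towards 12-HETE. Of 6 PPAR and fatty acid oxidation genes and of 44 genes of the actin cytoskeleton 0 passed by edgeR or DESeq2 in the direct test, with 2 and 12 higher with 12-HETE and 1 and 3 lower at an unadjusted p under 0.05. In 15 genes of NRF2 and oxidative stress Keap1 passed as given above, and Txn1, thioredoxin, was higher with 12-HETE (1.33, adjusted p = 0.0143, and 0.161 without 12-HETE replicate 4, 0.146 without ADAR1 p150 replicate 2, 0.106 with thinned libraries and 0.174 by DESeq2).

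Of 20 tested transcripts of the mitochondrial genome 4 (20.0%, against 5.56% of all genes) were higher with 12-HETE and 0 with ADAR1 p150. The median was 0.42, and it was -0.08 without 12-HETE replicate 5 and 0.73 without 12-HETE replicate 4. In the effects 1 passed towards 12-HETE and 0 the other way, with a median of 0.27. Summed over the 20 transcripts the groups overlapped, at 3994.4 and 6346.9 CPM with 12-HETE and 4231.5 and 5297.6 with ADAR1 p150. ND1, a subunit of complex I, had 151.9 and 228.2 CPM with 12-HETE and 79.5 and 95.2 with ADAR1 p150 (1.12, SE 0.18, adjusted p = 6.6e-06), with 242.0 to 424.0 in the controls, so both treatments lay below the controls. TrnP, the proline tRNA, had 126.3 and 147.8 against 47.8 and 57.5 CPM (1.38, SE 0.16, adjusted p = 2.8e-08). The 16S ribosomal RNA mt-Rnr2 had 23.5 and 105.7 CPM in the 12-HETE libraries and 22.5 and 27.2 with ADAR1 p150 (1.36, adjusted p = 0.0137), and without 12-HETE replicate 5 the difference was -0.07, while without either ADAR1 p150 replicate the call was lost (adjusted p = 0.109 and 0.0676). Of 73 solute carriers 5 (6.85%) were higher with 12-HETE and 9 (12.3%) with ADAR1 p150, near the 5.56% and 10.3% of all genes. Among them were Slc39a4, a zinc importer, at 3.57 and 13.0 against 46.4 and 45.4 CPM (-2.48, SE 0.33, adjusted p = 4.8e-07), and Slc10a1, a bile acid transporter, at 9.99 and 9.96 against 47.1 and 59.0 CPM (-2.40, SE 0.29, adjusted p = 8.2e-08).

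The remaining lists held few called genes. Of 24 nuclear-encoded respiratory chain subunits 3 (12.5%, against 5.56% of all genes) were higher with 12-HETE and 0 lower. The median was 0.48 in the direct difference and 0.17 in the effects. Sdha, the flavoprotein of complex II, led them at 62.8 and 47.5 against 23.2 and 17.4 CPM (1.44, adjusted p = 4.9e-05). Of 62 zinc finger genes 6 (9.68%, against 10.3% of all genes) were higher with ADAR1 p150 and 1, Zfp367, with 12-HETE, with a median of 0.05. Zfp790 was the lowest of them, at 7.13 and 5.36 against 26.7 and 35.5 CPM (-2.29, adjusted p = 6.4e-06). The 15 tested p53 targets and the 16 immediate early genes each had 1 in either direction, 6.67% and 6.25% of these lists. Of all genes 5.56% were higher with 12-HETE and 10.3% with ADAR1 p150. The 8 genes of NF-kappaB and cytokines had 2, Vegfa and Bcl3, on the side of the enzyme, a larger share than that of all genes. Plxnb1 alone passed among 9 semaphorins and their receptors, and Ovol1, an epithelial transcription factor, alone among 10 genes of epithelial and mesenchymal state (-1.21, adjusted p = 0.00644). Both were higher with ADAR1 p150, and each was a share of its list near the 10.3% of all genes. Ovol1 is overlapped by Gm31166 and lost the call without 12-HETE replicate 4 (adjusted p = 0.0661) or ADAR1 p150 replicate 1 (0.119) and in DESeq2 (0.082).

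Transcript classes divided unevenly between the treatments. Over all genes 10.3% were higher with ADAR1 p150 and 5.56% with 12-HETE. Of 1600 long non-coding genes 289 (18.1%) were higher with ADAR1 p150 and 32 (2.0%) with 12-HETE, with a median of -0.30. Of 329 pseudogenes 70 (21.3%) were higher with ADAR1 p150 and 11 (3.34%) with 12-HETE, with a median of -0.43. Of 4906 protein-coding genes 343 (6.99%) and 339 (6.91%) were, with a median of 0.16. In the effects the medians were -0.16, -0.39 and -0.03. There 178, 32 and 213 genes of these classes passed towards ADAR1 p150 and 44, 4 and 100 towards 12-HETE. Protein-coding genes took 59.7% and 59.0% of counts with 12-HETE and 56.7% and 54.8% with ADAR1 p150, and pseudogenes 2.78% and 2.86% against 3.42% and 3.53%. The part of these shares in the differences of the classes was not tested.

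The medians of whole chromosomes differed little between the treatments. Against their controls both had moved, with medians of -0.42 with 12-HETE and -0.33 with ADAR1 p150 on chromosome 12, -0.36 and -0.22 on chromosome 19, and 0.47 and 0.50 on the X chromosome. The SD of the medians over 20 chromosomes was 0.19 and 0.18 against the controls and 0.08 in the direct difference, whose medians ran from -0.09 on chromosome 18 to 0.18 on the X chromosome. The controls differed from each other with an SD of 0.03.

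**Figure D5:**
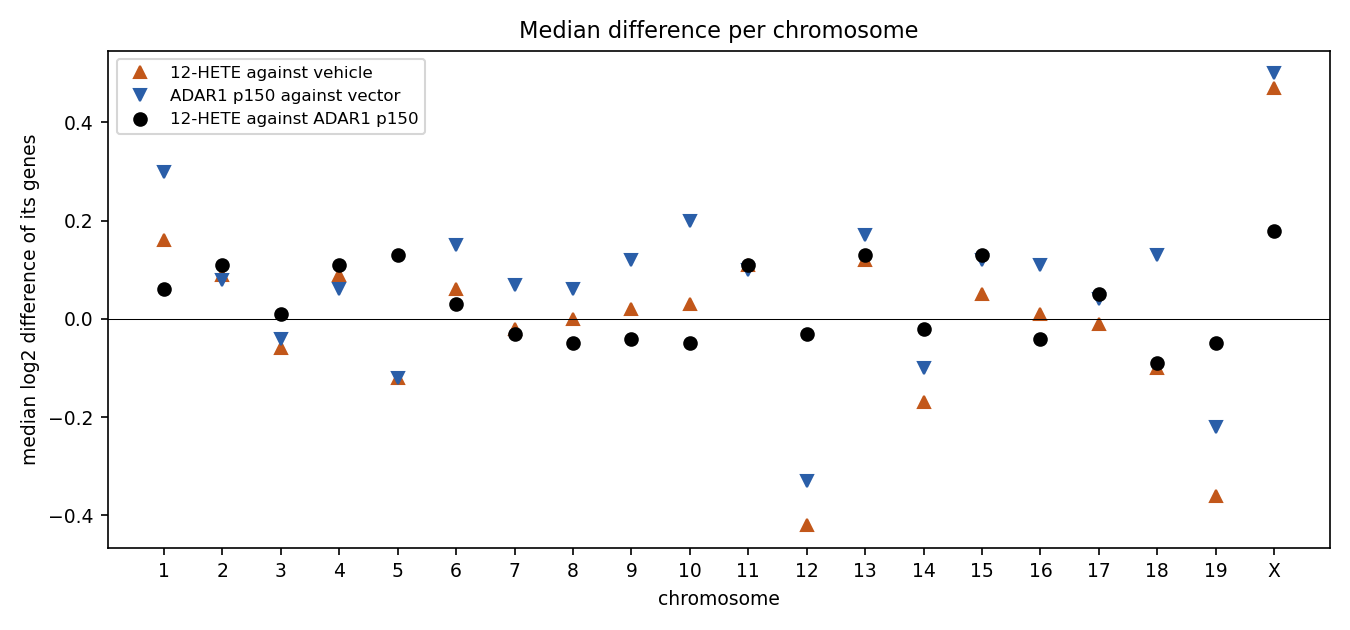
Median log2 difference of the tested genes of each chromosome (horizontal axis) for 12-HETE against vehicle, ADAR1 p150 against vector and 12-HETE against ADAR1 p150. The shifts on chromosomes 12, 19 and X appear in both treatments and shrink in the direct difference, whose medians lie between -0.09 and 0.18.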

How the data were processed

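RNA of EO771 cells was sequenced by the authors, and the labels and the methods name different extraction and library kits. Before depositing, the authors removed duplicate reads with prinseq and aligned with STAR to GRCm38. Counting with featureCounts is given for the other bulk RNA-seq of the study. The deposited values are raw counts per gene in 8 libraries, with totals of 1101767 to 1537037 counts, and whether strand was used is not given in the sources used here.

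The 6901 of 49997 genes that averaged 10 or more counts were tested with edgeR 4.0.16 (quasi-likelihood F test, TMM, a mean per group, all 8 libraries, Benjamini-Hochberg adjustment over all 6901) in R 4.3.3, and a call needed both a 2-fold difference and an adjusted p under 0.05. The SE of a log2 difference was its size over the root of F. The direct difference and the difference between effects came from the same fit. DESeq2 1.42.0 and other settings served as alternatives. On simulated counts for 6901 genes with 200 changed 4-fold, 189 were recovered in the direct difference with 4 false calls, and 155 in the difference between effects with 8. Every simulated gene had the same spread between libraries and, if unchanged, equal means in all groups. These rates need not hold for genes whose libraries were uneven.

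The genes named were Adar, the 10 highest, the 10 lowest and the 5 with the most counts per direction among called genes averaging 50 or more counts, with groups that did not overlap, up to 3 per class of side and direction among genes passing both tests, and up to 4 called members per gene list, with some of the genes that met this rule not reported here. Neighbours, overlapping genes, further histone genes, Ddit3, Eno1, H2ax and E2f8 were named after their values were seen. The comparison and the gene lists were chosen with earlier results of these data known, and the mitochondrial list was redefined by chromosome once the names in the table were seen. All 49997 symbols of the table matched RefSeq (GRCm38.p6), which gave places and promoters.

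Libraries of the same group differed by more than sampling noise (chi-square per gene 1.40 to 1.71), so none was counted as a duplicate.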

Additional observations from a re-analysis of the deposited data

How the results depend on the processing

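With DESeq2 in place of edgeR the direct difference gave 596 genes rather than 1092, the difference between effects 254 rather than 575, both tests 202 rather than 462, 12-HETE against vehicle 590 rather than 991 and ADAR1 p150 against vector 441 rather than 884. With 10 counts in every library these were 525 in the direct difference, 481 for 12-HETE and 429 for ADAR1 p150. By adjusted p alone they were 2305, 1033, 980, 2021 and 1766 in the order first given. Of the named genes and list members, 77 were called by DESeq2, 65 with 10 counts in every library and 259 by adjusted p alone. The 3 genes between the controls became 0 by DESeq2, with 10 counts in every library and with thinned libraries, 1 in a fit of the 4 control libraries, 6 with RLE factors, 7 with protein-coding TMM factors, 8 by adjusted p alone, 8 without the most abundant gene, 11 with no minimum and 2 to 22 with a library left out.

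Among gene lists in the direct difference, DESeq2 called 10 histone genes rather than 16, 4 rather than 10 of mitosis, 1 rather than 5 of the proteasome, 2 rather than 8 splicing factors, 3 rather than 9 of the stress response higher with 12-HETE and 2 rather than 5 of sterol synthesis, and 3 rather than 5 hypoxia genes higher with ADAR1 p150. In the effects it called 1 rather than 7 histone genes, 0 rather than 2 of sterol synthesis higher with 12-HETE and 0 rather than 6 hypoxia genes.

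Same-numbered libraries did not deviate together (r = -0.0774 for vehicle and 12-HETE, -0.112 for vector and ADAR1 p150), so the numbers were not taken to pair them. With a replicate block the difference between effects gave 506 genes (135 higher and 371 lower), 12-HETE against vehicle 942 and ADAR1 p150 against vector 813. With the vector and ADAR1 p150 numbers crossed, added after the data were seen, the first and the last gave 633 and 921. No paired analysis was possible for the direct difference because its groups share no replicate number.

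Of the 108 named genes other than Adar, 0 reversed under the settings that kept all libraries, in 764 cases the adjusted p stayed under 0.05 and in 52 it did not. With a library left out, the same held in 359 cases and failed in 72, and mt-Rnr2 reversed, ranging from -0.07 without 12-HETE replicate 5 to 2.09 without 12-HETE replicate 4. By DESeq2 the adjusted p was 0.0612 to 0.318 for Bcl3, Cdk1, Dhx9, H3c4, Irf7, Mxi1, Ovol1, Psat1, Ptges, Shmt2, Slfn9, Txn1, Vegfa and mt-Rnr2. Low totals limited the genes with few counts.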
